A study of Mus musculus with 18 samples.

Results

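The 10 genes described here encode the cyclins that drive the G1 phase of the cell cycle, the inhibitors that hold the G1 kinases back, and the transcription factor released at the end of G1. They are the D cyclins Ccnd1, Ccnd2 and Ccnd3, the E cyclins Ccne1 and Ccne2, the inhibitors Cdkn1a (p21), Cdkn1b (p27), Cdkn2b (p15) and Cdkn2c (p18), and E2f1. They were chosen by name from the 30583 genes of the series' count table. All 10 were found there, and all 10 were among the 16311 genes that passed the filter on low counts.

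D cyclins bind Cdk4 and Cdk6 and start the phosphorylation of the retinoblastoma protein, which releases E2F factors. E2F factors switch on the E cyclins and the genes of DNA replication, and cyclin E with Cdk2 completes the step into S phase. INK4 inhibitors (Cdkn2b, Cdkn2c) block Cdk4 and Cdk6, whereas Cip/Kip inhibitors (Cdkn1a, Cdkn1b) act on the cyclin E kinase and more broadly, and adult heart muscle cells are known for having largely left the cell cycle while the cells of a healing scar divide.

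In GENCODE M21 (mouse build GRCm38) the D cyclin genes lie apart, Ccnd1 at chr7:144929931-144939925 (minus strand), Ccnd2 at chr6:127125162-127152193 (minus strand) and Ccnd3 at chr17:47505051-47599691 (plus strand). The E cyclins are Ccne1 at chr7:38097984-38107534 (minus strand) and Ccne2 at chr4:11191351-11204779 (plus strand), and E2f1 lies on chr2:154559407-154569892 (minus strand). The Cip/Kip inhibitors are Cdkn1a at chr17:29090976-29100727 (plus strand) and Cdkn1b at chr6:134920401-134925513 (plus strand). The INK4 inhibitors are Cdkn2b at chr4:89306299-89311039 (minus strand) and Cdkn2c at chr4:109660876-109667189 (minus strand). Counts are given per gene, so transcripts of 1 gene are not separated.

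The libraries came from 18 male C57BL/6JR mice aged 12 weeks, with 3 mice in each of 6 groups. In 5 groups a myocardial infarction (MI) was made by tying off the left anterior descending artery (LAD), and hearts were taken 10 min or 1, 6, 24 or 72 h later. In the sham group, labelled 0 h, the suture was passed and not tied. The labels describe the same kind of anaesthesia and operation for all groups, with no genetic modification named. No other time had its own sham group. In comparisons with sham, ligation therefore cannot be told apart from time since the operation. The pentobarbital dose in the labels differs between samples. The RNA source is named as the myocardial region of the infarcted left ventricle and the cell type as cardiomyocytes, with no separation of cells described. The 3 mice of a group are separate animals, so the p-values below measure the spread between mice.

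Libraries held 18.2 to 25.1 M counts (M, mega). Levels are TMM-scaled counts per M counts (CPM), log2 fold changes carry the model's standard error (SE), and a gene is called when its edgeR quasi-likelihood p, adjusted over all 16311 genes, is under 0.05. Markers of several cell types were present, and their levels changed: the summed level of 6 cardiomyocyte markers was 38910 to 42940 CPM in sham and 9699 to 12820 CPM at 72 h, with none of the 6 at 0 in any group. Over the same groups 6 monocyte or macrophage markers went from 179.9 to 202.2 CPM up to 2591 to 3428 CPM, and 6 fibroblast markers from 662.4 to 738 CPM up to 9780 to 12320 CPM. Fewer cells of a type and less RNA per cell cannot be told apart in such libraries. At 72 h all 6 cardiomyocyte markers were called lower and all 6 macrophage and all 6 fibroblast markers higher. Endothelial markers were called lower in 4 of 5, and smooth muscle and pericyte markers in 4 of 5. The T and B cell list had 3 of 4 tested markers higher. Over all tested genes 66.4% were called at 72 h in either direction, not far below the shares of these last 3 lists. The T and B cell sum was 1.82 to 2.28 CPM in sham, 3.48 to 5.89 CPM at 1 h and 3.75 to 4.96 CPM at 72 h. One library stood apart: 6 h replicate 1 held 113.1 CPM of 3 atrial markers, and the other 17 libraries held at most 1.104 CPM.

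**Figure D1:**
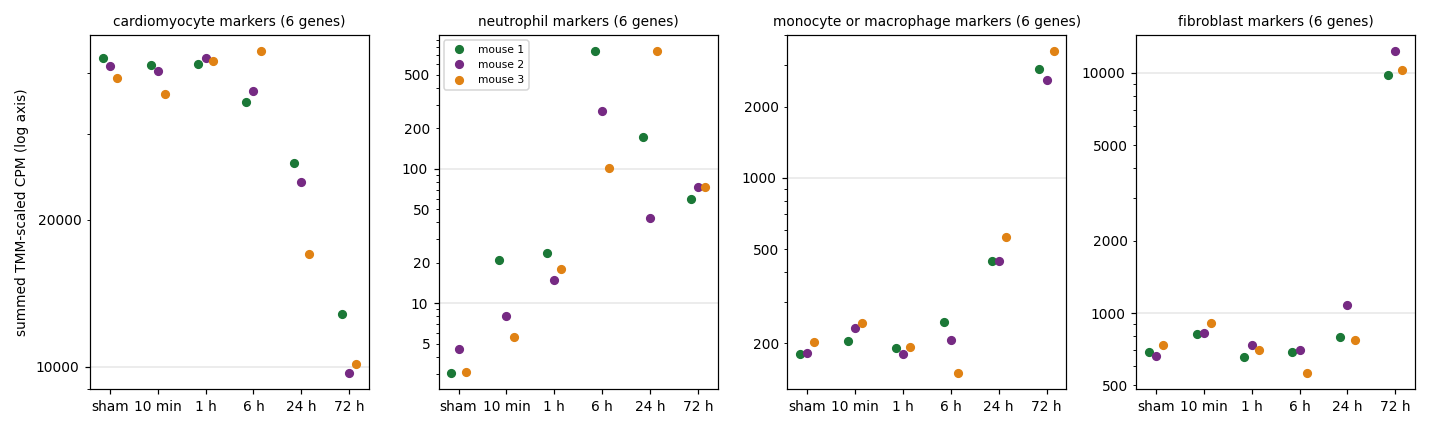
Summed TMM-scaled CPM (vertical log axis) of 6 marker genes for each of 4 cell types in every library, by group, with 1 point per mouse. Cardiomyocyte markers were lowest at 72 h (9699 to 12820 CPM), neutrophil markers highest at 6 h and 24 h with a wide spread between mice, and macrophage and fibroblast markers highest at 72 h.

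The genes were first called at different times. Against sham, Cdkn1a (higher) and Ccnd2 (lower) were first called at 6 h, and E2f1, Cdkn2b and Ccne1 (higher) at 24 h. Ccne2, Cdkn2c and Ccnd3 (higher) and Cdkn1b (lower) were called at 72 h and at no earlier time. In all, 9 of the 10 genes were called at 72 h. A first call need not mark the start of a change. For Ccne1 the log2 fold change was 1.00 at 6 h (edgeR adjusted p = 0.0831) and 1.05 at 24 h. Its 24 h call held in 3 of 6 fits that left out 1 library. In the F test among the 6 groups 8 of the 10 genes were called, and 78.4% of all tested genes were. Against sham, 2 of 10 were called at 6 h (1 higher, 1 lower), where 28.4% of all genes were, 5 at 24 h (4 higher, 1 lower), where 43.8% were, and 9 at 72 h (7 higher, 2 lower), where 66.4% were. The median log2 fold change of the 10 genes at these 3 times was -0.10, 0.20 and 1.57, and that of all tested genes was -0.01, 0.01 and 0.03. These comparisons share the 3 sham libraries.

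At 10 min edgeR called 0 of 10 (0.0736% of all genes), with 1 of 10 at an unadjusted p under 0.05, and DESeq2 and limma also called 0. At 1 h edgeR called 0 of 10 (0.294% of all genes), with 1 at an unadjusted p under 0.05, limma called 0 and DESeq2 called 1. That gene was Cdkn1a in each case. Between 10 min and 1 h edgeR, DESeq2 and limma called 0 of 10 (0.307% of all genes by edgeR), and 0 had an unadjusted p under 0.05. Between later neighbouring times, 3 of 10 were called from 1 h to 6 h (24.5% of all genes), 2 of 10 from 6 h to 24 h (27.8%) and 6 of 10 from 24 h to 72 h (50.5%).

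**Figure D2:**
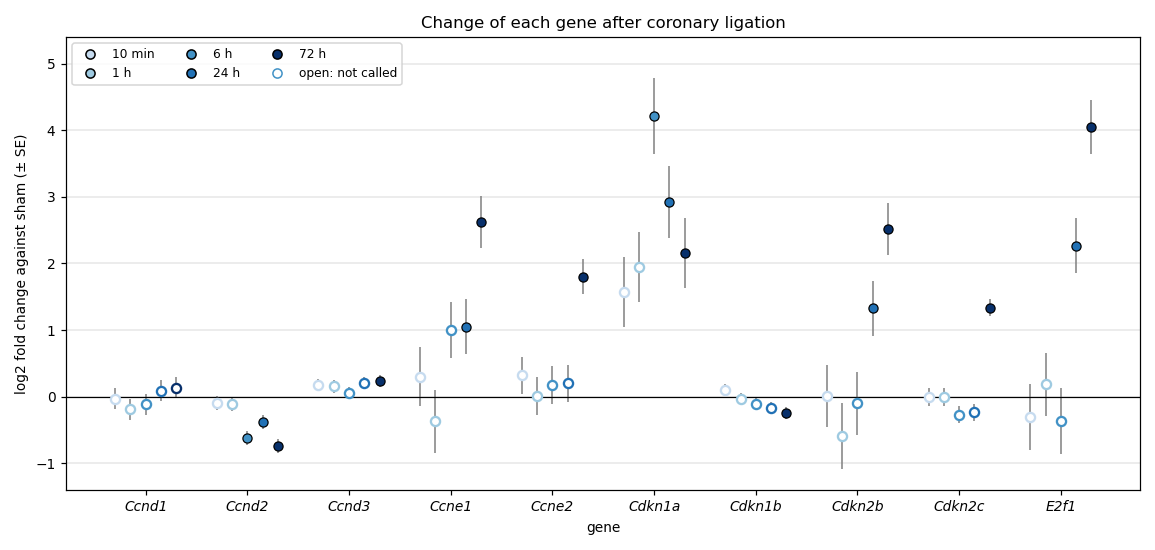
Log2 fold change against sham with its SE (vertical axis) for each of the 10 genes at the 5 times after ligation, n = 3 mice per group, filled points called by edgeR and open points not. Cdkn1a peaked at 6 h (4.22), E2f1 reached 4.05 at 72 h, and Ccnd1 had no filled point.

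Among the D cyclins only Ccnd2 changed at more than 1 time, and it went down. Ccnd2 stood at 109, 103 and 114 CPM in the 3 sham hearts, at 102, 102 and 100 at 10 min and at 108, 91.6 and 103 at 1 h. It then stood at 76.2, 70.9 and 65.4 CPM at 6 h, at 86.2, 92.9 and 69.8 at 24 h and at 65.5, 70.3 and 58.6 at 72 h. From 6 h on, every library lay below every sham library. The log2 fold changes against sham were -0.62 (SE 0.10, edgeR adjusted p = 3.44e-04) at 6 h, -0.39 (SE 0.10, edgeR adjusted p = 0.00588) at 24 h and -0.74 (SE 0.10, edgeR adjusted p = 4.79e-06) at 72 h. The drop fell between 1 h and 6 h (log2 -0.51, SE 0.10, edgeR adjusted p = 0.00194). A further difference from 24 h to 72 h (log2 -0.36, SE 0.10, edgeR adjusted p = 0.00775) came with groups that overlapped, was not called without 72 h replicate 3 (-0.27) or with only the 6 libraries compared, and turned to 0.03 when libraries were scaled by their totals. Under that scaling, and with limma on FPKM, the calls at 24 h and 72 h against sham were also lost (down to -0.15 at 72 h), while the call at 6 h held under each of 9 other settings. That scaling puts the median gene at a log2 change of 0.61 at 72 h, against 0.03 with TMM.

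Ccnd1, the D cyclin most often linked to growth factor signals, was not called at any time. Its levels were 49.2, 44.2 and 62.1 CPM in sham, 56.4, 47.6 and 39.6 at 6 h and 56.6, 64.8 and 49.4 at 72 h, and its groups overlapped in every comparison. The log2 fold change at 72 h was 0.13 (SE 0.16), with an edgeR adjusted p of 0.469, and 0.386 was the adjusted p of the F test. With libraries scaled by their totals, or with limma on FPKM, Ccnd1 was called higher at 72 h (up to 0.72).

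Ccnd3 stood at 45.9, 43.5 and 49.8 CPM in sham and at 55.1, 55.3 and 53.3 CPM at 72 h, groups that did not overlap. The rise was small (log2 0.23, SE 0.09, edgeR adjusted p = 0.0370), and it was called in only 1 of the 6 fits that left out 1 of these libraries (0.18 to 0.28). Ccnd3 was not called in the F test (edgeR adjusted p = 0.188). Ccnd1, Ccnd2 and Ccnd3 overlap other genes on the opposite strand by 1100, 372 and 361 exonic bases (LTO1, Gm43126 and Bysl), and whether reads were counted by strand is not given in the sources used here, so reads of these partners may be included. Ccnd2 also shares 368 exonic bases with 9330179D12Rik.

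Within the D cyclins the share of Ccnd2 was lower and that of Ccnd1 higher at 72 h than in sham. Per kilobase of gene, Ccnd2 made up 42.4, 43.3 and 39.0% of the 3 D cyclins in the sham hearts and 27.5, 27.2 and 27.3% at 72 h. Ccnd1 went from 38.4, 37.1 and 42.7% to 47.6, 50.0 and 46.0%. The 72 h shares lay outside the sham range for both genes. These shares are ratios within a library, so library scaling does not enter them.

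**Figure D3:**
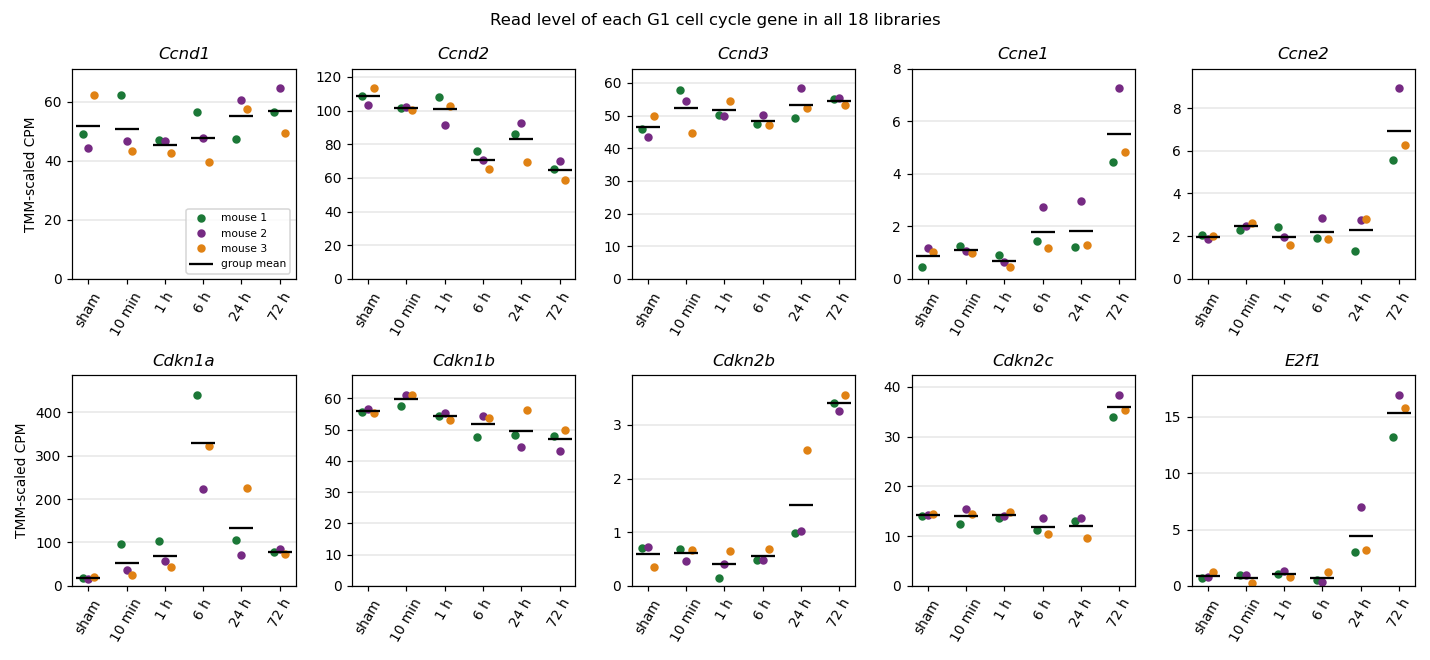
TMM-scaled CPM (vertical axis, from 0) of each of the 10 genes in all 18 libraries by group, with points for single mice and bars for group means. Ccnd2 steps down between 1 h and 6 h, Cdkn1a peaks at 6 h with a wide spread, and E2f1, Ccne1, Ccne2, Cdkn2b and Cdkn2c are highest in the 3 mice at 72 h.

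The E cyclins were low in sham and rose late. Ccne1 was read at 0.455, 1.19 and 1.02 CPM in sham (9 to 23 counts), at 1.43, 2.73 and 1.17 at 6 h, at 1.21, 2.97 and 1.29 at 24 h and at 4.45, 7.28 and 4.84 at 72 h. All 3 libraries at 72 h lay above the other 15. Ccne1 was 6.16-fold higher than sham at 72 h (log2 2.62, SE 0.40, edgeR adjusted p = 1.19e-05). The smaller difference at 24 h (log2 1.05, SE 0.41, edgeR adjusted p = 0.0472) was lost in 3 of 6 fits that left out 1 library (without sham replicate 1, sham replicate 3 or 24 h replicate 2; down to 0.48) with only the 6 libraries compared and with limma on log2(FPKM + 1). Ccne1 was higher at 6 h than at 1 h (log2 1.38, SE 0.44, edgeR adjusted p = 0.0308), a call lost without 1 h replicate 2, 1 h replicate 3 or 6 h replicate 2 (down to 0.91) and with limma on FPKM.

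Ccne2 was not called at any time before 72 h. It stood at 2.07, 1.87 and 1.999 CPM in sham, at 1.30, 2.76 and 2.78 at 24 h and at 5.55, 8.95 and 6.27 at 72 h, again with the 72 h hearts above the other 15. The rise at 72 h was 3.49-fold (log2 1.80, SE 0.27, edgeR adjusted p = 9.20e-06), and the step from 24 h was also called (log2 1.601, SE 0.26, edgeR adjusted p = 5.36e-05). In both genes replicate 2 was the highest of the 3 hearts at 72 h. Ccne2 shares 609 exonic bases with Ints8 on the opposite strand. The 2 genes code for cyclins that pair with the same kinase, and at 72 h their levels per kilobase did not differ beyond their spread (2.07 ± 0.58 for Ccne1 and 1.98 ± 0.51 CPM per kb for Ccne2, SD, n = 3).

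E2f1, the activating E2F factor, changed most of the genes that rose late. Its levels were 0.657, 0.830 and 1.24 CPM in sham, 0.536, 0.383 and 1.23 at 6 h, 3.02, 6.97 and 3.20 at 24 h and 13.2, 17.0 and 15.8 at 72 h. The libraries at 24 h lay above every earlier one, and those at 72 h above those at 24 h. Against sham the difference was 4.81-fold at 24 h (log2 2.27, SE 0.41, edgeR adjusted p = 3.71e-04) and 16.6-fold at 72 h (log2 4.05, SE 0.41, edgeR adjusted p = 1.33e-07). E2f1 also rose from 6 h to 24 h (log2 2.63, SE 0.43, edgeR adjusted p = 3.87e-04) and from 24 h to 72 h (log2 1.79, SE 0.34, edgeR adjusted p = 3.24e-04). The step from 6 h to 24 h was 2.12 to 3.28 without 1 library and 1.02 to 2.96 under other settings. Under those settings the value against sham was 0.93 to 2.48 at 24 h and 2.61 to 4.64 at 72 h. The sham libraries held 13, 16 and 28 counts of E2f1. Its 4 calls held in every fit that left out 1 library and under the 8 other settings that tested the gene.

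Cdkn1a, the best known target of p53, had the largest change of the 10 genes at 6 h. It stood at 17.9, 15.5 and 19.6 CPM in sham. The hearts at 10 min had 95.6, 37.3 and 25.6 CPM, and those at 1 h had 103, 56.6 and 44.6 CPM. Every one of these 6 hearts lay above every sham heart, and replicate 1 was far above the others at both times.

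Neither early difference was called. The log2 fold change was 1.58 (SE 0.53, edgeR adjusted p = 0.507) at 10 min, and 0.84 without 10 min replicate 1. At 1 h it was 1.95 (SE 0.53, edgeR adjusted p = 0.336), where DESeq2 gave an adjusted p of 0.0434. The 6 neutrophil markers (S100a8, S100a9 and others), summed, were 3.03 to 4.56 CPM in sham, 21.04, 8.10 and 5.64 CPM at 10 min and 23.7, 14.9 and 18.02 CPM at 1 h. Replicate 1 was highest in this sum too at both times, while at 1 h replicate 3 exceeded replicate 2, unlike for Cdkn1a. The part of these markers in the result was not tested.

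At 6 h Cdkn1a reached 441, 223 and 323 CPM, above every other library except 24 h replicate 3. This was 18.6-fold over sham (log2 4.22, SE 0.57, edgeR adjusted p = 1.79e-04), and a rise from 1 h as well (log2 2.27, SE 0.52, edgeR adjusted p = 0.00696). Without 6 h replicate 1, the library with atrial transcripts, the 2 values were 3.95 (edgeR adjusted p = 7.22e-04) and 2.001 (edgeR adjusted p = 0.0296). Neutrophil markers summed to 748, 268 and 101 CPM in these 3 hearts, while for Cdkn1a replicate 3 exceeded replicate 2. The part of these markers at 6 h was not tested.

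Cdkn1a remained above sham later. Its levels were 105, 70.5 and 226 CPM at 24 h (log2 2.92, SE 0.54, edgeR adjusted p = 9.04e-04) and 78.7, 84.8 and 72.5 CPM at 72 h (log2 2.16, SE 0.53, edgeR adjusted p = 0.00272). Without 24 h replicate 3 the value at 24 h was 2.31 (edgeR adjusted p = 0.00488). Every heart at both times lay above every sham heart. The neutrophil sum at 24 h was 173, 43.0 and 744 CPM, in the same order as Cdkn1a, and at 72 h it was 59.2 to 73.5 CPM. Its part at these times was not tested. The lower level at 24 h than at 6 h was not called (log2 -1.30, SE 0.50, edgeR adjusted p = 0.0705), but it was without 24 h replicate 3 (-1.91, edgeR adjusted p = 0.0215), with the stricter count filter, with DESeq2 and with limma on FPKM. From 24 h to 72 h the difference was not called either (log2 -0.76, SE 0.50, edgeR adjusted p = 0.223).

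Promoter windows are shown for Cdkn1a because it had the largest change at 6 h, for Ccne1 because it had GC boxes and was called higher at 24 h and 72 h, and for Cdkn2c because it alone held an E2F word. RefSeq (build GRCm38.p6) held windows for 7 of the 10 genes, and the 250 bases before a start site were searched on both strands for 3 patterns: CATG followed after any 6 bases by another CATG (the cores of a paired p53 site), the E2F word TTCCCGC or its variant words TTGGCGC or also TTCGCGC or lastly TTGCCGC, and the GC box GGGCGG. Of 32851 such windows, 0.49% held the first pattern, 7.89% an E2F word and 32.7% a GC box, and the last 2 can overlap. Matches wholly inside the printed bases are in capitals, bases inside annotated exons are left off, and the patterns were chosen with the sequences known.
Cdkn1a, first start, plus strand, chr17:29090729-29090975: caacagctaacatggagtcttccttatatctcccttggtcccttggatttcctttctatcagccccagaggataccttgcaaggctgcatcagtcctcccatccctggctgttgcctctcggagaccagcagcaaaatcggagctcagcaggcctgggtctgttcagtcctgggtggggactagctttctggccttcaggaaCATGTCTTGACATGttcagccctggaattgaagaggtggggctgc
Cdkn1a, second start, plus strand, chr17:29093519-29093768: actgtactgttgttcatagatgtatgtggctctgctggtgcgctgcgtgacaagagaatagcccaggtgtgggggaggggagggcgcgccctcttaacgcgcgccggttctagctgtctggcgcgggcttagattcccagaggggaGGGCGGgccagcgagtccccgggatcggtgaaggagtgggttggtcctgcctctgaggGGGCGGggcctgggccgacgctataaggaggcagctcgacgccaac
Ccne1, minus strand, chr7:38107535-38107740: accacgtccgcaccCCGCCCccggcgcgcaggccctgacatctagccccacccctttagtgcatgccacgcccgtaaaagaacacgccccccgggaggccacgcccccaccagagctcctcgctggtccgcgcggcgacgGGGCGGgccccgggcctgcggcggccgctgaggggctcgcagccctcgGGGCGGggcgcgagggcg
Cdkn2c, minus strand, a site inside an exon annotated in GENCODE M21, chr4:109666770-109666799: cgtGGGCGGggcccggccTTCCCGCtcccg

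The window at the first Cdkn1a start held the paired CATG pattern 48 bases before that start, and the other 9 windows of the 7 genes held none. The second Cdkn1a start lies 2793 bases into the annotated gene and had 2 GC boxes. Ccne1 had 4 GC boxes in the full window, 3 of them in the printed bases, and no E2F word of those 4. The Cdkn2b window had no match to the 3 patterns. Of the 10 windows only 1, at a Cdkn2c start, held an E2F word, TTCCCGC, 25 bases before the start. The E2f1 window also held 4 GC boxes, but it lies wholly inside an annotated exon of the gene and is not printed. GC boxes were found too in that Cdkn2c window (3), in the Ccnd3 windows (2 and 1) and in the Cdkn1b window (1). Counts per gene do not separate the starts of Cdkn1a or Cdkn2c.

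Cdkn1b, the inhibitor with the highest level per kilobase in sham, hardly moved. It stood at 55.7, 56.6 and 55.4 CPM in sham, at 47.6, 54.4 and 53.8 at 6 h and at 47.8, 43.3 and 49.8 at 72 h. The groups at 72 h and in sham did not overlap. The log2 fold change at 72 h was -0.25 (SE 0.09, edgeR adjusted p = 0.0185), and this direction flipped to a called 0.34 when libraries were scaled by their totals and to 0.31 or 0.33 with limma on FPKM. The call was also lost with no filter on low counts, with a stricter one and without 72 h replicate 2.

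The INK4 inhibitors rose late and from very different levels. Cdkn2b was near its detection limit in sham at 0.708, 0.726 and 0.355 CPM, stood at 0.993, 1.03 and 2.53 at 24 h and reached 3.41, 3.26 and 3.56 at 72 h. The 72 h hearts lay above the other 15 and within a narrow range of each other. Cdkn2b was 5.74-fold higher at 72 h than in sham (log2 2.52, SE 0.39, edgeR adjusted p = 1.67e-05). It was 2.50-fold higher at 24 h (log2 1.32, SE 0.41, edgeR adjusted p = 0.0147), a call lost without sham replicate 3, without 24 h replicate 3 (down to 0.77) or with only the 6 libraries compared. Both steps were called, from 6 h to 24 h (log2 1.43, SE 0.42, edgeR adjusted p = 0.0174) and from 24 h to 72 h (log2 1.20, SE 0.35, edgeR adjusted p = 0.00804). The first was lost without 6 h replicate 1, 6 h replicate 2 or 24 h replicate 3 (down to 0.87), and with only the 6 libraries compared.

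Cdkn2c was called higher than sham only at 72 h. Its 3 sham hearts had 14.0, 14.3 and 14.4 CPM, the 3 at 6 h had 11.3, 13.5 and 10.4, the 3 at 24 h had 12.95, 13.6 and 9.54, and the 3 at 72 h had 33.9, 38.4 and 35.4. The hearts at 6 h and 24 h lay below every sham heart without a call (log2 -0.27, edgeR adjusted p = 0.122, and log2 -0.23, edgeR adjusted p = 0.147). Cdkn2c then rose 2.53-fold over sham (log2 1.34, SE 0.13, edgeR adjusted p = 3.50e-08) and 2.97-fold over 24 h (log2 1.57, SE 0.13, edgeR adjusted p = 1.61e-08), the smallest adjusted p of the 10 genes in both comparisons. Both calls held in every fit that left out 1 library and under each of 9 other settings.

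Per kilobase of gene, the sham hearts were led by Cdkn1b (12.3 ± 0.14 CPM per kb, SD, n = 3), then Ccnd2 (11.5 ± 0.55) and Ccnd1 (11.0 ± 1.96), which overlapped each other, and Cdkn1a (7.93 ± 0.93). Ccnd3 (5.29 ± 0.36) and Cdkn2c (5.29 ± 0.08) were level, and Ccne2 (0.57 ± 0.03), Cdkn2b (0.43 ± 0.15), Ccne1 (0.33 ± 0.15) and E2f1 (0.29 ± 0.10) lay far below. The last 3 overlapped their neighbours in this order. At 6 h Cdkn1a led with 148 ± 49.0 CPM per kb, and no other of the 10 genes reached 12 on average there. At 72 h the order was Cdkn1a (35.4 ± 2.78), Cdkn2c (13.4 ± 0.86), Ccnd1 (12.1 ± 1.63) and Cdkn1b (10.3 ± 0.73), with Cdkn2c overlapping Ccnd1 and Ccnd1 overlapping Cdkn1b. E2f1 had moved up to 4.86 ± 0.61, above Cdkn2b and both E cyclins. The length implied for Cdkn1a by the deposited FPKM is 2223 bases against 3553 in GENCODE M21, and with the longer one its sham hearts had 5.02, 4.35 and 5.51 CPM per kb, among the levels of Ccnd3 and Cdkn2c instead of above them.

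The summed level of the 3 D cyclins and that of the 4 inhibitors were of similar size in the sham hearts, and the inhibitor sum was larger after ligation. From sham to 6 h the mean D cyclin sum went from 27.8 to 23.2 CPM per kb, and the mean inhibitor sum from 25.9 to 164. The ratio of D cyclins to inhibitors per kilobase was 1.05, 1.00 and 1.16 in sham and 0.503, 0.744 and 0.810 at 10 min. It was 0.429, 0.587 and 0.695 at 1 h, 0.120, 0.198 and 0.128 at 6 h, 0.393, 0.623 and 0.214 at 24 h and 0.414, 0.428 and 0.385 at 72 h. All 15 hearts after ligation lay below the 3 sham hearts, with the lowest ratios at 6 h. With 3 against 3 hearts a two-sided exact permutation test cannot go below 0.10, and none was run.

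Cdkn1a made up most of that change. Its share of the 4 inhibitors was 30.9, 27.6 and 33.1% in sham, 93.0, 85.3 and 90.0% at 6 h and 58.1, 59.3 and 55.0% at 72 h. Without Cdkn1a, which was not called at 10 min or 1 h, the ratio was 1.52, 1.39 and 1.74 in sham. It was 1.72, 1.38 and 1.30 at 10 min and 1.585, 1.43 and 1.49 at 1 h. At 6 h it was 1.70, 1.35 and 1.28. The groups at these 3 times each overlapped sham. At 72 h the ratio without Cdkn1a was 0.988, 1.05 and 0.854, and these hearts lay below the other 15. With the GENCODE length of Cdkn1a the full ratio was 1.12 to 1.33 in sham and 0.183 to 0.291 at 6 h.

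**Figure D4:**
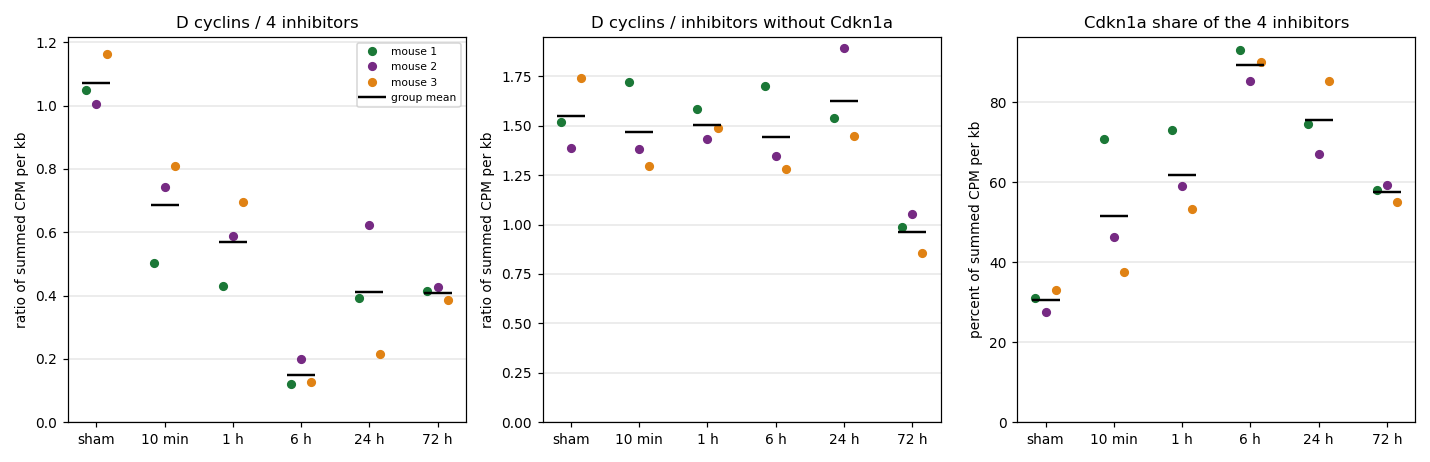
Ratio of summed CPM per kb of Ccnd1, Ccnd2 and Ccnd3 to the 4 inhibitors (left), the same ratio without Cdkn1a (middle), and the Cdkn1a share of the inhibitors in percent (right), for each mouse by group, with bars for group means. The full ratio fell from about 1.07 in sham to 0.149 at 6 h on average, while without Cdkn1a it was lowest at 72 h.

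The kinases that these cyclins bind rose late. Of 7 G1 kinases and activators, 6 were called higher and 1 lower at 72 h, where 66.4% of all tested genes were called, with a list median of 0.76 in log2. Cdk4, the partner of the D cyclins, went from 41.9 ± 1.499 CPM (SD, n = 3) in sham to 62.1 ± 7.14 at 24 h and 92.0 ± 5.83 at 72 h (log2 1.13, edgeR adjusted p = 6.44e-09). Cdk6, the other partner, rose 2.50-fold at 72 h (log2 1.32, edgeR adjusted p = 1.01e-07), and Cdc25a, the phosphatase that activates Cdk2, rose 1.82-fold (log2 0.86, edgeR adjusted p = 2.13e-05). Ccnh, the cyclin of the CDK-activating kinase, was the 1 gene called lower (log2 -0.72, edgeR adjusted p = 5.87e-05).

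The other 3 CDK inhibitors each went their own way. Cdkn1c (p57) fell 5.00-fold to 7.38 ± 1.85 CPM at 72 h from 36.9 ± 3.48 in sham (log2 -2.32, edgeR adjusted p = 1.64e-06), and was already called lower at 6 h and 24 h. Cdkn2d (p19) rose at 6 h, from 23.2 ± 2.11 to 34.0 ± 0.53 CPM (log2 0.55, edgeR adjusted p = 8.33e-04), and was not called at 72 h (log2 0.11, edgeR adjusted p = 0.341). Cdkn2a, which gives p16 and ARF, had at most 1 count in any sham library and 1.175 ± 0.26 CPM at 72 h (edgeR adjusted p = 6.37e-06), so no fold is given.

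Of 12 pocket protein, other E2F and DP genes, 8 were called higher and 3 lower at 72 h, where 66.4% of all tested genes were called, with a median log2 change of 0.58 against 0.03 over all genes. E2f2, a second activating factor, had 0.218 CPM in sham, 0.886 CPM at 6 h, 2.68 CPM at 24 h and 8.93 CPM at 72 h (log2 5.27, edgeR adjusted p = 6.84e-08). Rbl1 (p107) fell at 6 h (log2 -0.94, edgeR adjusted p = 0.00112) and rose at 72 h (log2 1.72, edgeR adjusted p = 5.37e-08). E2f8, a repressing member, rose 8.82-fold at 72 h (log2 3.14, edgeR adjusted p = 1.26e-06). Rb1 itself was the 1 gene not called (log2 0.12, edgeR adjusted p = 0.310).

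Genes that E2F factors are known to drive at S phase entry were called higher in 3 of 12 at 6 h, 9 of 12 at 24 h and 12 of 12 at 72 h, where 28.4, 43.8 and 66.4% of all tested genes were called. The list's median log2 change was 0.06, 1.27 and 3.07 at these times. Ccna2, the S phase cyclin, had 0.232 CPM in sham, 1.09 CPM at 24 h and 31.5 CPM at 72 h (log2 7.08, edgeR adjusted p = 2.35e-10). Cdt1 (log2 3.20, edgeR adjusted p = 1.60e-09) and Mcm5 (log2 3.30, edgeR adjusted p = 2.11e-09), both parts of replication licensing, rose at 72 h too. Of the mitotic genes, 7 of 8 were called higher at 24 h and 8 of 8 at 72 h. Their median log2 change was 1.98 at 24 h and 6.51 at 72 h, or 1.67 and 6.41 with the 2 genes of at most 3 counts in every sham library set against 3 counts per library. Ccnb2 stood at 0.227 CPM in sham, 0.559 ± 0.53 (SD, n = 3) at 24 h and 26.1 at 72 h. It was the 1 gene not called at 24 h (edgeR adjusted p = 0.0662). Plk1 stood at 0.238, 0.788 ± 0.63 and 20.1 CPM, and Bub1 at 0.0662, 0.497 ± 0.46 and 10.4. At 24 h the SDs of these 3 genes were close to their means, a wide spread between mice. Macrophage and fibroblast markers rose over the same times, as given above, and their part in these rises was not tested.

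p53 target genes other than Cdkn1a were mixed. Of 13, 1 was called higher at 1 h, 6 higher at 6 h, 6 higher and 2 lower at 24 h, and 7 higher and 3 lower at 72 h, where 0.294, 28.4, 43.8 and 66.4% of all tested genes were called in either direction. Btg2, an antiproliferative gene that also answers to serum, was the 1 at 1 h, with 33.3 CPM in sham, 237 CPM at 1 h, 220.0 CPM at 6 h and 44.2 CPM at 72 h. Phlda3 (log2 1.84 at 72 h, edgeR adjusted p = 9.64e-10) and the cell death gene Bax (log2 1.21 at 72 h, edgeR adjusted p = 1.87e-06) were both called at 24 h and 72 h and not at 6 h. Besides Btg2, the genes called higher at 6 h were Sesn2 (log2 1.58), Plk2 (0.84), Gadd45a (0.83), Trp53inp1 (0.50) and Zmat3 (0.41). Those called lower were Ccng1 (log2 -0.84) and Sesn1 (-0.74) at 24 h. At 72 h they were Ccng1 (-1.06), Sesn1 (-1.05) and Gadd45a (-0.90). Mdm2, the p53 feedback inhibitor, was not called in the F test (edgeR adjusted p = 0.169), at 47.5 CPM in sham and 54.4 at 6 h.

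Of 10 transcription factors known to act on these genes, 3 were called higher at 6 h, a share near the 28.4% of all tested genes called there, and 4 higher and 5 lower at 72 h, where 66.4% of all were called. Klf4, an activator of Cdkn1a, had 59.6 CPM in sham, 160 CPM at 1 h (log2 1.43, edgeR adjusted p = 1.13e-04) and 32.1 at 72 h. Myc, which represses Cdkn1a and Cdkn2b and activates Ccnd2, had 2.15 CPM in sham and 41.4 CPM at 6 h (log2 4.26, edgeR adjusted p = 6.65e-06). Stat3 stood at 119 CPM in sham and 330 at 6 h (log2 1.47, edgeR adjusted p = 3.86e-06).

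Of 8 ubiquitin ligase parts that turn over G1 cyclins and p27, 3 were called higher and 4 lower at 72 h, where 66.4% of all tested genes were called. Skp2 and Cks1b, which direct p27 to destruction, rose 8.57-fold (log2 3.10, edgeR adjusted p = 6.24e-09) and 8.13-fold (log2 3.02, edgeR adjusted p = 1.77e-10) at 72 h. Fbxo31, which has been linked to cyclin D1 turnover, fell (log2 -1.87, edgeR adjusted p = 5.29e-08).

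**Figure D5:**
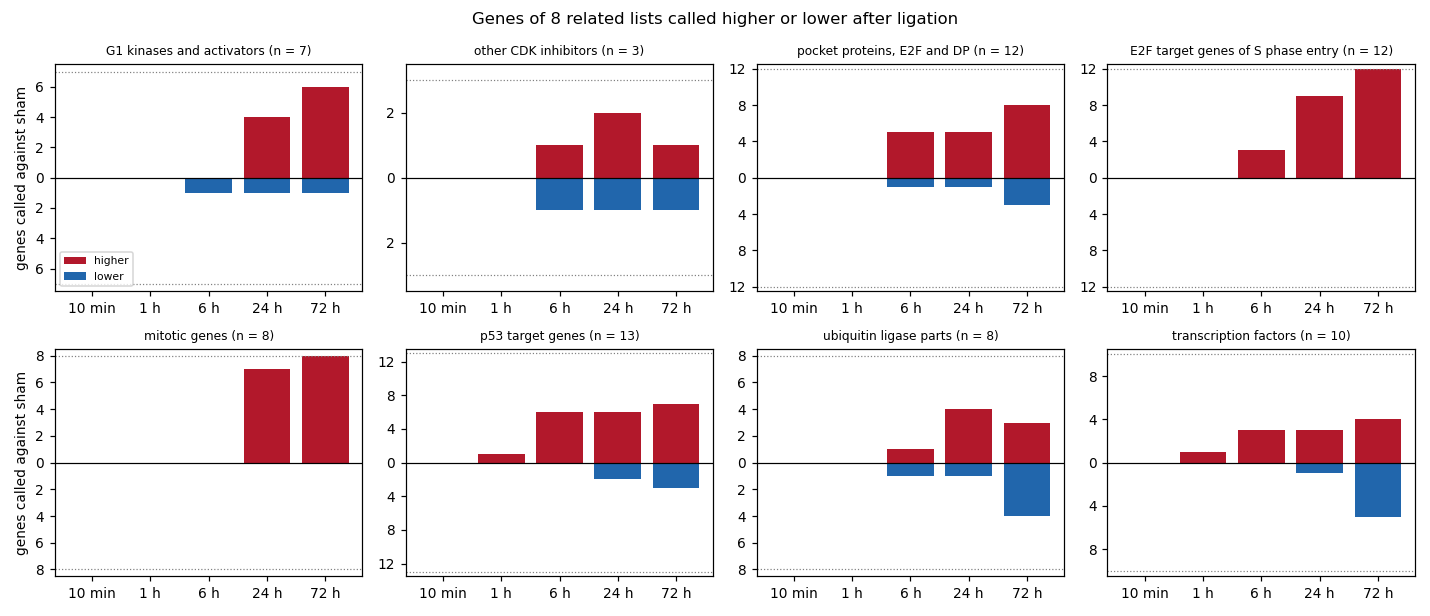
Number of genes called by edgeR against sham (vertical axis, higher above and lower below 0) at each time after ligation, for 8 lists of genes related to the G1 cyclins and inhibitors, with dotted lines at the number tested. The E2F target list reached 12 of 12 higher and the mitotic list 8 of 8 higher at 72 h, while transcription factors and ubiquitin ligase parts went both ways.

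The genes whose log2 CPM ran most like each called member over the 18 libraries were listed, among 11677 genes (11678 for Cdkn2b) averaging 50 counts or more. For Ccnd2 they were Fbxw7 (Pearson r 0.95), the ubiquitin ligase part that targets cyclin E, and Car8 (0.94). E2f1 ran most like Prim1 (0.97), a DNA primase subunit, and Dpy19l1 (0.96), and Ccne1 like Orc6 (0.94), an origin recognition subunit, and Idi1 (0.92). Cdkn1a ran most like Fosl2 (0.94), an AP-1 factor, and S100a8 (0.94), a neutrophil marker. Cdkn2c ran most like Sfrp1 (0.98) and the collagen gene Col14a1 (0.98), Ccne2 like Rab23 (0.96) and Hs6st2 (0.95), Cdkn2b like Aldh3b1 (0.95) and Pik3cd (0.95), and Cdkn1b like Det1 (0.86) and Ezh1 (0.86). These r values describe 18 libraries in 6 groups that share the time course, and they carry no test.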

How the data were processed

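The authors deposited whole-number read counts per gene for all 18 libraries, and the same counts as FPKM. The submitters' processing notes name cutadapt 1.18, HISAT2 2.1.0, featureCounts and build mm10; roles, annotation and strand setting are not given in the sources used here. The FPKM columns of 6 h replicates 2 and 3 held each other's counts, which leaves group comparisons as they are. Symbols and coordinates are from GENCODE M21 (GRCm build 38).

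Counts were fitted in R 4.3.3 with edgeR 4.0.16: filterByExpr (14272 genes removed), TMM (factors 0.825 to 1.43), glmQLFit (robust), 1 mean per group over all 18 libraries, glmQLFTest, two-sided, Benjamini-Hochberg. Levels per kilobase use the length implied by the FPKM. Alternatives were DESeq2 1.42.0, limma 3.58.1 on log2(FPKM + 1) and log2(FPKM + 0.1), other scalings and filters, only the 6 libraries compared, a replicate block and leaving out each library. No molecular identifiers are described, so floors of 3 counts cover counting error only.

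Named were all 10 members, the 3 genes of each list with the smallest F test p and genes singled out by a small count, and for each called member the 2 genes with the highest r. Mdm2, Sesn2, Plk2, Gadd45a, Trp53inp1, Zmat3, Ccng1 and Sesn1 were named after their values were seen. The members and lists were chosen with earlier results of these data known. Skp1 is read under its older symbol Skp1a.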

Additional observations from a re-analysis of the deposited data

Results flagged for a closer look

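These differences between neighbouring times passed the edgeR test of the difference itself, n = 3 mice per group, given as log2 fold changes. From 1 h to 6 h these were Ccnd2 (-0.51), Ccne1 (1.38) and Cdkn1a (2.27). From 6 h to 24 h they were Cdkn2b (1.43) and E2f1 (2.63). From 24 h to 72 h they were Ccnd2 (-0.36), Ccne1 (1.57), Ccne2 (1.601), Cdkn2b (1.20), Cdkn2c (1.57) and E2f1 (1.79). Cell type markers moved over the same steps, and their part was not tested.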

How the results depend on the processing

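Of the 10 genes, the number called moved by more than 1.5 times in these cases. At 1 h against sham DESeq2 called 1 in place of 0. A minimum of 10 counts in every library, which leaves Ccne1, Cdkn2b and E2f1 untested, gave 2 in place of 5 at 24 h, 5 in place of 9 at 72 h, 1 in place of 2 from 6 h to 24 h, 3 in place of 6 from 24 h to 72 h and 5 in place of 8 in the F test. With only the 6 libraries compared, 3 were called at 24 h and 1 from 6 h to 24 h. From 6 h to 24 h library totals gave 5 and limma on log2(FPKM + 1) or log2(FPKM + 0.1) gave 6; the cause was not tested. Leaving out 1 library gave 3 to 6 at 24 h (lowest without sham replicate 3), 7 to 9 at 72 h, 2 to 3 at 6 h, 2 to 3 from 1 h to 6 h, 1 to 3 from 6 h to 24 h (lowest without 6 h replicate 1 or 2), 5 to 6 from 24 h to 72 h and 8 to 8 in the F test. Directions turned with library totals, log2(FPKM + 1) and log2(FPKM + 0.1) for Cdkn1b at 72 h against sham (0.34, 0.31, 0.33), Cdkn1b from 24 h to 72 h (0.32, 0.30, 0.32) and Ccnd2 from 24 h to 72 h (0.0301, 0.0372, 0.0418).

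Scaling by library totals shifted the median log2 change over every tested gene, to -0.12 (6 h), 0.20 (24 h), 0.61 (72 h), 0.33 (24 h against 6 h) and 0.37 (72 h against 24 h). The higher share among called genes went from 57.2 to 40.6% at 6 h, 54 to 75.5% at 24 h, 51.4 to 79.9% at 72 h, 59.2 to 45.7% from 1 h to 6 h, 50.9 to 88% from 6 h to 24 h, 48.4 to 81.5% from 24 h to 72 h and 41.7 to 77.8% at 10 min.

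Replicate numbers showed no sign of pairing the mice, though such a check cannot exclude it. Correlations around the group means were -0.256 to 0.252 (median 0.035) for same numbers and -0.355 to 0.451 (median -0.013) for different numbers. The replicate block left the members called at 0, 0, 2, 5 and 9 at the 5 times, 0, 3, 2 and 6 between neighbouring times and 8 in the F test.

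Over all genes, the 12 called at 10 min became 26 with no filter, 360 with only the 6 libraries, 4 and 3 with limma, 58 with DESeq2 and 0 to 5 without 1 library. The 48 at 1 h became 190 and 93 with only the 6 libraries and DESeq2, and 31 without sham replicate 2. The 4639 at 6 h became 2926 without 6 h replicate 1. The 50 from 10 min to 1 h became 244, 127 and 6 to 40, the 4003 from 1 h to 6 h became 2481 without 6 h replicate 1 and 2664 without 1 h replicate 2, and the 4541 from 6 h to 24 h became 6880 with library totals and 1024 with only the 6 libraries.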
